A study of Drosophila melanogaster with 17 samples.

Results

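The bithorax complex of Drosophila melanogaster holds the Hox genes Ubx, abd-A and Abd-B on chromosome arm 3R. It was described here as all 330 windows of 1 kb from 3R 12480001 to 12810000 in release 5 of the genome, out of 120384 such windows on the assembled arms of the 2nd and 3rd chromosomes, the X and the 4th. Windows were chosen by position, with Ubx, then abd-A, then Abd-B in rising coordinates, and a fragment was counted in the window that holds its midpoint. The 300 kb on each side, 600 windows in all, served as comparison, and the domain was also read in 3 segments of 110 kb. In a release 6 annotation, used for names and order alone, 16 genes lie from Ubx to Abd-B. Of these, 6 code for proteins: Ubx, CG31275, Glut3, abd-A, MSAmiP and Abd-B. The others include the long non-coding RNAs bxd, iab4 and iab8 and the microRNA genes mir-iab-4 and mir-iab-8. Gene boundaries in release 5 were not used here, so no window was assigned to a gene.

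Ubx, abd-A and Abd-B encode homeodomain transcription factors that set the identity of posterior thoracic and abdominal segments, and their order along the chromosome follows the order of the segments they specify. Where these genes are silent, Polycomb group proteins cover the domain and the histone mark H3K27me3 spreads across it, which makes it a standard example of repressive chromatin. Where they are active, Trithorax group proteins hold them on. ISWI is the ATPase of several remodelling complexes that space nucleosomes, and the linker histone H1 binds the DNA between nucleosomes.

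Micrococcal nuclease (MNase), which cuts linker DNA and leaves a ladder of nucleosome multiples, was used on isolated nuclei. BG3-c2 cells come from the larval central nervous system and Kc cells from embryos. Culture was at 26 °C and digestion took 20 min at 37 °C. The groups were tetranucleosomal Illumina libraries of BG3-c2 after ISWI dsRNA (2 libraries) and after control GST dsRNA (2 libraries), nanopore libraries of untreated BG3-c2 (2 libraries), of Kc after H1 dsRNA (2 libraries) and of Kc after control GST dsRNA (2 libraries), and 1 library per level of an MNase titration of BG3-c2 (low, medium, high) on Illumina and on nanopore, with 1 of naked BG3-c2 DNA cut by MNase on nanopore. Cells given dsRNA were harvested on day 6, with 50 µg of dsRNA for ISWI and a second treatment midway for H1. Knockdown cannot be checked in tables of DNA fragments. The labels call the 3 Illumina digests total chromatin, whereas the series design text reserves Illumina for the tetranucleosomal band.

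Depth on the arms, as distinct intervals, ranged from 22225674 to 80417273 in the Illumina digests, from 1003420 to 8520611 in the dsRNA tetranucleosomal libraries and from 25421 to 2482533 in the nanopore libraries. The second Kc replicates were shallow, with 70 fragments in the domain after H1 dsRNA and 64 after control dsRNA. Only 44.0% and 14.7% of the intervals of the ISWI libraries lay on the arms, and 46.6% and 17% of those of the control libraries, against 75.9% to 84.7% elsewhere. Nothing in the labels says that replicates came from separate cultures, so the spread between them may be technical. Windows were called dense where any of 10 libraries exceeded 5 times its median. They numbered 9 in the domain and 29 in the flanks and were left out of coverage and phasing.

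Taken as a whole, the domain gave fewer fragments than its surroundings in a mild digest of BG3-c2 chromatin, and this deficit shrank as digestion went on. In the Illumina libraries the domain had 0.823 times the arm mean in the low digest (95% Poisson interval 0.819 to 0.827), 0.914 times in the medium digest and 1.02 times in the high digest. Both flanks together had 1.14, 1.14 and 1.12 times the arm mean in the same order. Domain over flanks was thus 0.725, 0.800 and 0.912, or -0.46, -0.32 and -0.13 on the log2 scale. The flanks stayed level over the titration while the domain climbed at each step. Among 359 stretches of 330 kb cut from the arms, the domain's coverage ranked 63, 81 and 163 from the lowest in the low, medium and high digests. Low coverage as such was therefore not particular to the domain. Intervals here and below cover counting error only, and each digest is 1 library.

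The edge of the domain showed in single windows of 10 kb. At the Ubx end, the low digest had 1.40 and 1.19 times the arm mean in the 2 windows before the domain, then 1.01, 0.729 and 0.694 in its first 3 windows. At the Abd-B end, the last 2 windows of the domain had 0.899 and 1.19 times the arm mean, and the first 2 windows beyond it had 1.81 and 1.46. Coverage therefore changed within about 10 to 20 kb of both limits. Coverage went up from low to medium to high digest in 31 of 33 windows of 10 kb in the domain, against 19 of 60 in the flanks. The same count was not made over all windows of the arms, so its genome-wide share is not known here.

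**Figure D1:**
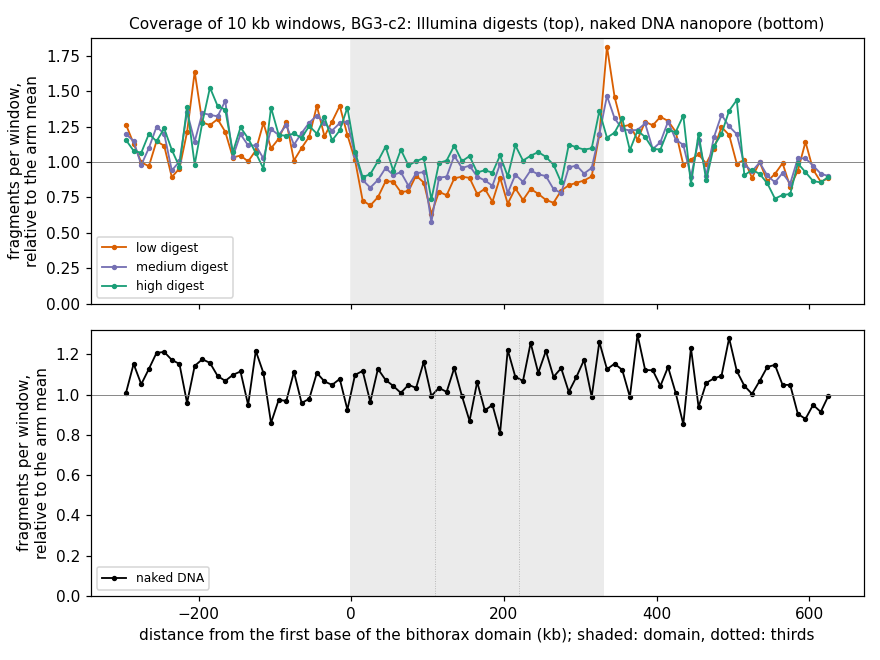
Coverage relative to the arm mean in 10 kb windows (points) of the 3 Illumina digests of BG3-c2 (top) and of naked BG3-c2 DNA on nanopore (bottom), against distance in kb from the first base of the domain. Over the shaded domain the low digest lies at 0.823 on average and the high digest at 1.02, whereas naked DNA lies at 1.07.

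Naked DNA showed no such step. The domain had 1.07 times the arm mean in the naked library and the flanks also had 1.07, a log2 ratio of domain over flanks of -0.003 (95% counting interval -0.046 to 0.039). Nanopore reads of the same 3 digest levels gave log2 ratios of -0.22 (-0.35 to -0.10), -0.03 (-0.14 to 0.08) and -0.11 (-0.24 to 0.02) from low to high. The low digest was thus below its flanks on both platforms, and the medium and high nanopore digests had intervals that include 0.

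In the replicated tetranucleosomal libraries, log2 domain over flanks was -0.21 and -0.37 after ISWI dsRNA and -0.16 and -0.30 after control dsRNA. All 4 libraries lay below 0, with a mean of -0.26 ± 0.10 (SD, n = 4) and a two-sided exact sign-flip p of 0.13, the smallest that 4 libraries allow. Against the lower-coordinate flank alone the mean was -0.42, and against the higher-coordinate flank alone it was -0.07 (exact sign-flip p = 0.25). Untreated BG3-c2 nanopore libraries had -0.14 and -0.12. Control Kc libraries had -0.19 and, from 63 fragments kept, 0.08. BG3-c2 averaged -0.13 ± 0.02 and Kc -0.06 ± 0.19 (SD, n = 2 each), a difference of -0.08 with an exact permutation p of 1. The lines did not differ beyond the spread of the Kc replicates, and in this pair the cell line and the dsRNA cannot be told apart.

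**Figure D2:**
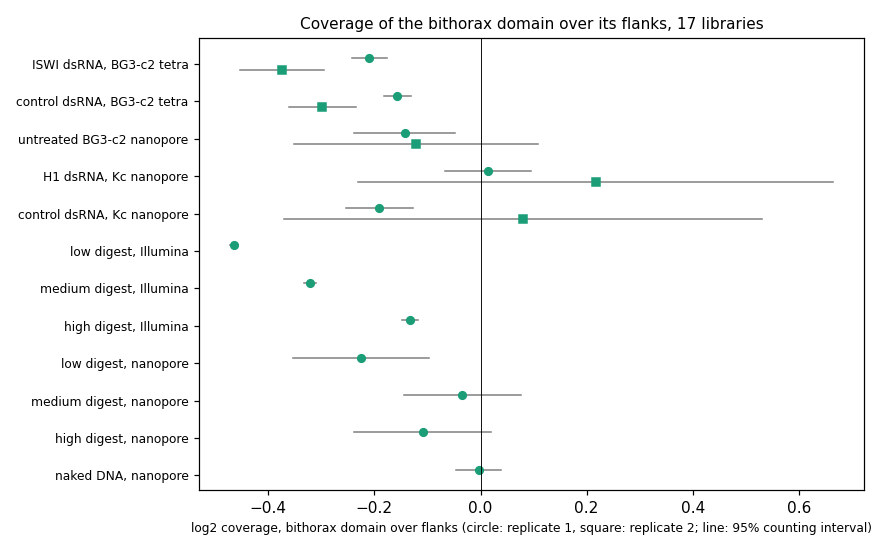
Log2 coverage of the domain over its flanks in each of the 17 libraries, with circles for replicate 1, squares for replicate 2 and lines for 95% counting intervals. The low Illumina digest is lowest at -0.46, the 4 dsRNA tetranucleosomal libraries lie between -0.37 and -0.16, and naked DNA lies at -0.003.

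MNase sensitivity was taken per 1 kb window as log2 of low over high digest after scaling both libraries to the same arm total, so a negative value marks DNA recovered better after heavy digestion. The domain averaged -0.26 in the Illumina digests, its flanks 0.05 and the arms 0.01. From the Ubx end to the Abd-B end, the 3 segments averaged -0.21, -0.27 and -0.31. Without dense windows they averaged -0.257, -0.263 and -0.313, so the first 2 were then nearly level. Of the 330 windows, 67 (20.3%) were resistant past 1.5-fold, against 54 of 600 (9%) in the flanks and 10.9% of all 120198 arm windows tested. Only 15 (4.55%) were sensitive past 1.5-fold, against 80 (13.3%) in the flanks and 12.6% on the arms. Resistant windows were therefore more frequent, and sensitive windows less frequent, than in either comparison, without a test because each digest is 1 library.

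The shift ran along the domain and was not set by a few windows. In windows of 10 kb, 32 of 33 lay below 0, against 26 of 60 in the flanks and 53.1% of all 12025 tested. The exception, at 0.25, was 3R 12580001 to 12590000, which holds a block of dense windows described further on. The lowest 10 kb window had -0.46 and the median window -0.28. When the arms were cut into 359 stretches of 330 kb, the domain had the lowest mean, and the other 358 ranged from -0.22 to 0.43 with quartiles of -0.05 and 0.06. That rank is a description of this pair of libraries. Without dense windows the domain averaged -0.28 and again ranked lowest of 359.

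Low over medium digest and the nanopore reads gave the same sign and smaller values. Low over medium averaged -0.13 in the domain and -0.01 in the flanks, and the domain ranked 11 from the lowest of 359. Summed nanopore reads gave -0.15 for the domain and -0.06 for the flanks. Their difference of -0.091 had a counting SE of 0.091, so on nanopore the domain was not told apart from its flanks. Without dense windows the nanopore value of the domain was -0.16 and ranked 21 from the lowest of 359, so the lowest rank was not kept on this platform. On nanopore, 22 of 33 windows of 10 kb in the domain lay below 0, against 34 of 60 in the flanks. That count was not made over all windows of the arms. Across the 33 windows of 10 kb the 2 platforms had a Pearson r of 0.33, given as a description over windows that share libraries. Nanopore depth in the domain was 743 reads in the low and 750 in the high digest.

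**Figure D3:**
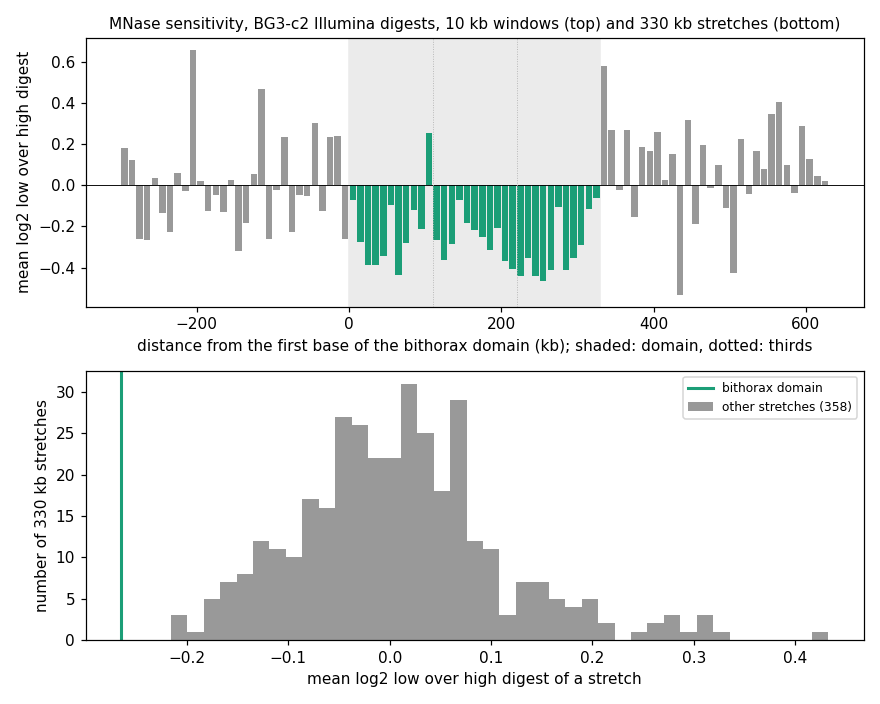
Top, mean log2 low over high digest (Illumina, BG3-c2) in 10 kb windows against distance in kb from the first base of the domain, with the domain in green and flanks in grey. Bottom, the same mean over 358 other stretches of 330 kb (grey bars) and the domain (green line, -0.26), which lies below the lowest other stretch at -0.22.

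The most sensitive and most resistant windows of the domain were chosen for their values and are described without a test. The most sensitive, 3R 12795001 to 12796000 toward the Abd-B end, held 751, 194 and 32 fragments in the low, medium and high digests, a log2 low over high of 2.68. Its coverage was 1.17, 0.595 and 0.185 times the arm mean in that order, and 0.646 times in naked DNA. Next came 3R 12624001 to 12625000 at 1.52 and 3R 12528001 to 12529000 at 0.88. These 3 windows lie 1 in each segment of the domain. The most resistant was 3R 12710001 to 12711000 at -1.09, with 330, 226 and 195 fragments. Its coverage was 0.516, 0.693 and 1.13 times the arm mean, against 1.24 in naked DNA. 3R 12687001 to 12688000 and 3R 12726001 to 12727000 followed, both at -1.01.

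A block of 6 adjacent dense windows, 3R 12582001 to 12588000 in the Ubx-side segment, went against the rest of the domain. It had 6.27, 5.70 and 4.47 times the arm mean in the low, medium and high Illumina digests, and its mean log2 low over high was 0.57. The dsRNA libraries had 4.90 and 6.09 times the arm mean there after ISWI dsRNA and 4.70 and 5.78 times after control dsRNA. Naked DNA on nanopore had 0.455 times the arm mean, from 55 reads. Only 7.27% of those reads had a mapping score of at least 20, against 99.5% in the rest of the domain. The 5 nanopore libraries of BG3-c2 chromatin were also low there, at 0.307 to 0.593 times the arm mean from 2 to 15 reads, with 0% to 14.3% of reads at that score in the 4 that list it. The Kc nanopore libraries had 0.922 and 2.39 times after H1 dsRNA and 1.38 and 0.792 times after control dsRNA. The block was thus high in every Illumina library and below the arm mean in every BG3-c2 nanopore library, chromatin and naked DNA alike, and the part of platform and mappability in these values was not tested. A further 3 single windows, starting at 3R 12558001, 12653001 and 12758001, were dense in the 4 dsRNA libraries of both treatments, at 5.20 to 14.8 times the library median, but not in the Illumina digests, at 0.523 to 1.37 times.

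Tetranucleosomal fragments were slightly shorter in the domain than in its flanks in the dsRNA libraries. The mean length of fragments of 500 to 1000 bp, domain minus flanks, was -4.54 and -6.70 bp after ISWI dsRNA and -2.28 and -9.31 bp after control dsRNA. All 4 lay below 0, with a mean of -5.71 ± 3.00 bp (SD, n = 4; exact sign-flip p = 0.13, the smallest possible). The difference was nearly lost for fragments of 600 to 800 bp, at -0.18 bp (exact sign-flip p = 0.75). In the low, medium and high Illumina digests the mean for 500 to 1000 bp differed by 0.45, -1.21 and -1.23 bp. Within these limits the digests did not share the size seen in the dsRNA libraries. Over fragments of all lengths, the median differed by -39, -31 and -42 bp in the low, medium and high Illumina digests. These medians include the dense windows, which are rich in Illumina fragments, and were not computed without them. It differed by -2 and -29 bp after ISWI dsRNA and by -16 bp in both control libraries. Nanopore libraries of chromatin had median differences of both signs.

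In the nanopore ladders of chromatin, the share of reads over 450 bp was mostly a little higher in the domain. Untreated BG3-c2 had 76.1% (95% Wilson interval 73.7 to 78.3) and 71.1% in the domain, against 72.3% (70.6 to 74.0) and 69.0% in the flanks. Kc had 82.4% and 90.0% in the domain after H1 dsRNA, against 79.4% and 77.3% in the flanks, and 77.5% and 93.75% after control dsRNA, against 74.9% and 90.0%. All 6 libraries were higher in the domain. The titration had 67.7%, 51.8% and 40% in the domain from low to high digest, against 67.2%, 53.4% and 37.6% in the flanks, so the medium digest was lower in the domain. Naked DNA had 47.7% in the domain and 48% in the flanks. On Illumina this share was lower in the domain in every library. Domain minus flanks was -2.98, -2.48 and -2.27 percentage points in the low, medium and high digests. It was -0.17 and -1.52 points after ISWI dsRNA and -1.18 and -3.21 points after control dsRNA. The direction thus differed between platforms. Dense windows were kept in these shares. The block of 6 dense windows held 24051 fragments of the low Illumina digest, beside 168992 in the windows kept for coverage. In the low nanopore digest it held 7 reads. Shares without the block were not computed, and the cause of the difference was not tested.

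Phasing asks whether fragment ends keep a common register in a population of cells. It was measured as the phase consistency of left ends within 1 kb windows for a 190 bp period, less its mean for periods of 140 and 280 bp, times 1000, where evenly spread ends give -1.98. The domain had 4.64, 7.02 and 6.91 in the low, medium and high Illumina digests, the flanks 6.78, 10.3 and 12.0, and the arms 4.31, 6.61 and 7.03. The domain was below its flanks in all 3 digests and close to the arm value in each. Naked DNA had -5.53 in the domain and -3.38 in the flanks.

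After ISWI dsRNA, domain minus flanks was 0.83 and -7.60 on this scale, and after control dsRNA -4.63 and -11.5. The mean was -5.73 ± 5.21 (SD, n = 4; exact sign-flip p = 0.25), with 3 of 4 libraries below 0. From right ends the mean was -14.1, and with no dense windows left out it was -6.31, with all 4 libraries below 0 in both cases (exact sign-flip p = 0.13 each, the smallest possible). An unweighted mean over windows gave 0.37 (exact sign-flip p = 1), so the size and sign of this difference depended on how ends and windows were taken. Of 321 windows kept, 12 (3.74%) were strongly phased, meaning in the top 5% of arm windows by the mean of the 3 digests, against a background of 5% by construction and 34 of 571 (5.95%) in the flanks. Those 12 were 4, 3 and 5 in the segments from Ubx to Abd-B.

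The most phased windows were 3R 12548001 to 12549000, 12740001 to 12741000 and 12574001 to 12575000, at 0.162, 0.114 and 0.108 before multiplying by 1000. The first had 0.102, 0.193 and 0.192 in the low, medium and high digests. It had 0.181 and 0.242 after ISWI dsRNA, from 69 and 11 ends, and 0.12 and -0.13 after control dsRNA, from 98 and 14 ends. Naked DNA had 0.007 from 17 ends. The first replicates of both treatments were thus above 0, and the second control replicate was below it on few ends. Over the 321 windows, phase and sensitivity had a Pearson r of 0.02, given as a description. The period of best phase in the domain was 180, 185 and 185 bp in the low, medium and high digests, against 180 bp in the flanks in each. In replicate 1 it was 195 bp after ISWI dsRNA and 190 bp after control dsRNA, against 205 and 175 bp in the flanks. In replicate 2 it was 205 bp in both domain and flanks after ISWI dsRNA. After control dsRNA, replicate 2 had 250 bp in the domain, on the limit of the search range, against 170 bp in the flanks.

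**Figure D4:**
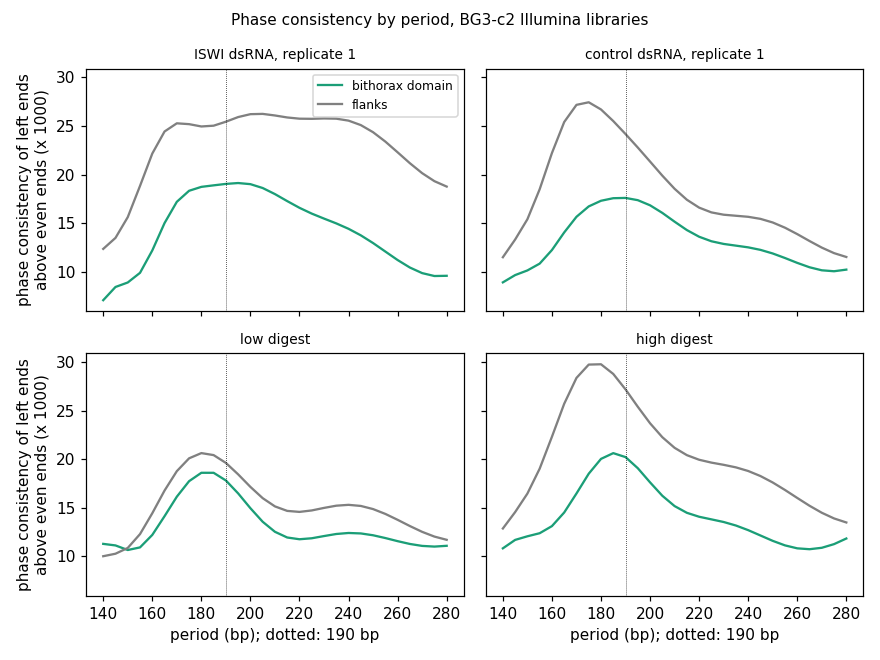
Phase consistency of left ends above that of even ends (times 1000) against period in bp, in the domain (green) and its flanks (grey), for replicate 1 after ISWI and control dsRNA and for the low and high Illumina digests. At most periods the domain curve runs below the flank curve, and in the low digest the domain peaks at 180 bp.

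After ISWI dsRNA, the domain's coverage and fragment length relative to the arms overlapped with those of the controls. Log2 coverage over the arms was -0.06 and -0.17 after ISWI dsRNA and -0.01 and -0.11 after control dsRNA, a difference of -0.05 (exact permutation p = 0.667). The groups overlapped, and both same-numbered differences were -0.05. Mean tetranucleosomal length minus the arm mean was -5.57 and -11.5 bp after ISWI dsRNA and -2.49 and -13.4 bp after control dsRNA, a difference of -0.58 bp (exact permutation p = 1). The groups overlapped here too. The difference was -3.50 bp with dense windows left out and -1.18 bp for fragments of 600 to 800 bp (exact permutation p = 0.667 each). Without subtracting the arm mean the domain's fragments were 25.0 bp shorter after ISWI dsRNA (exact permutation p = 0.33), and the median 10 kb window of the genome shifted by -24.7 bp in the same fit across windows.

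Phasing minus the arm value was 2.25 and -0.57 after ISWI dsRNA and -2.01 and -10.9 after control dsRNA (times 1000). The groups did not overlap, with a difference of 7.31 and an exact permutation p of 0.33, the smallest that 2 libraries against 2 allow. The domain's difference in phase statistic ranked 71 from the highest of 359 stretches of 330 kb. The segments were unequal. Before subtracting the arm value, the Ubx-side segment had 24.3 and 64.0 after ISWI dsRNA and 9.46 and 10.4 after control dsRNA. The middle segment had 4.55 and -13.0 against 1.21 and 9.75. The Abd-B-side segment had 0.38 and -20.2 against 8.11 and -26.6. Only in the Ubx-side segment did both ISWI libraries lie above both controls. The second replicates were thin, with 1833 fragments kept in the whole domain after ISWI dsRNA and 2905 after control dsRNA. The segments were not tested, and how often other stretches of 110 kb separate in this way was not counted.

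In limma fits over all 10 kb windows with Benjamini-Hochberg adjustment at 0.05, no window was called between ISWI and control for length (8210 tested, 0% called), phasing (7948 tested) or coverage (12004 tested). An unadjusted p under 0.05 was found in 360, 526 and 656 windows for length, phasing and coverage, of which 1, 0 and 2 lay in the domain. Such counts are near the share of 0.05 that this threshold gives where nothing differs. The domain had 24, 24 and 33 windows tested. The length window was 3R 12750001 to 12760000, at -22.6 bp (SE 9.89, limma adjusted p = 1.00). In simulated data the coverage fit called 96.5% of 200 windows changed 2-fold, and the length fit called 0 of 200 windows changed by 25 bp, so length changes of that size in single windows were not detectable.

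H1 dsRNA in Kc cells went with higher coverage of the middle and the Abd-B side of the domain in the deep replicate pair. Log2 coverage over the arms was 0.08 and -0.02 after H1 dsRNA and -0.14 and -0.10 after control dsRNA. The groups did not overlap, with means of 0.03 ± 0.07 and -0.12 ± 0.03 (SD, n = 2 each), a difference of 0.15 and an exact permutation p of 0.33, the smallest possible. Replicate 1 differed by 0.22 (95% counting interval 0.14 to 0.30) and replicate 2 by 0.08 (-0.42 to 0.57). Over both flanks replicate 1 differed by 0.02 (-0.05 to 0.08).

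The segments were unequal in replicate 1. From the Ubx end to the Abd-B end, log2 coverage was -0.12, 0.14 and 0.18 after H1 dsRNA and -0.14, -0.17 and -0.12 after control dsRNA. The differences were 0.02 (-0.13 to 0.18), 0.32 (0.17 to 0.46) and 0.29 (0.16 to 0.43). In replicate 2 they were -0.05, 0.01 and 0.35, each with a counting interval that includes 0. In windows of 10 kb, 26 of 33 lay above 0 in replicate 1, against 27 of 60 in the flanks and 49.5% of all 12000 tested. The 26 were 6, 10 and 10 of 11 windows in the segments. The largest, 3R 12770001 to 12780000, had a log2 of 0.83 from 72 fragments after H1 dsRNA and 74 after control dsRNA.

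Among 359 stretches of 330 kb, the domain had the highest difference in replicate 1, and the other 358 ranged from -0.24 to 0.18. With dense windows kept, it had 0.20 and ranked 2 from the highest, below a stretch at 0.21. It ranked 141 from the highest in replicate 2. A limma fit over the stretches, weighted by count, gave a difference of 0.22 (SE 0.04, limma adjusted p = 6.1e-05) with 7 of 359 stretches called higher (1.95%). The weights let replicate 1 decide that value. Without weights the difference was 0.15 (SE 0.13, limma adjusted p = 0.85), and no stretch was called, with 26 at an unadjusted p under 0.05. Weighted fits over 1087 stretches of 110 kb gave limma adjusted p-values of 0.93, 0.011 and 0.015 for the segments from Ubx to Abd-B, with 0.644% called higher. With the replicate number as a block, 1.39% of the 330 kb and 1.01% of the 110 kb stretches were called higher, the domain (limma adjusted p = 0.00019) and its middle and Abd-B-side segments (limma adjusted p = 0.0078 and 0.0084) among them. Without weights the limma adjusted p-values of the 3 segments were all above 0.97. The stretches and both fits were chosen after the values of the domain had been seen.

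**Figure D5:**
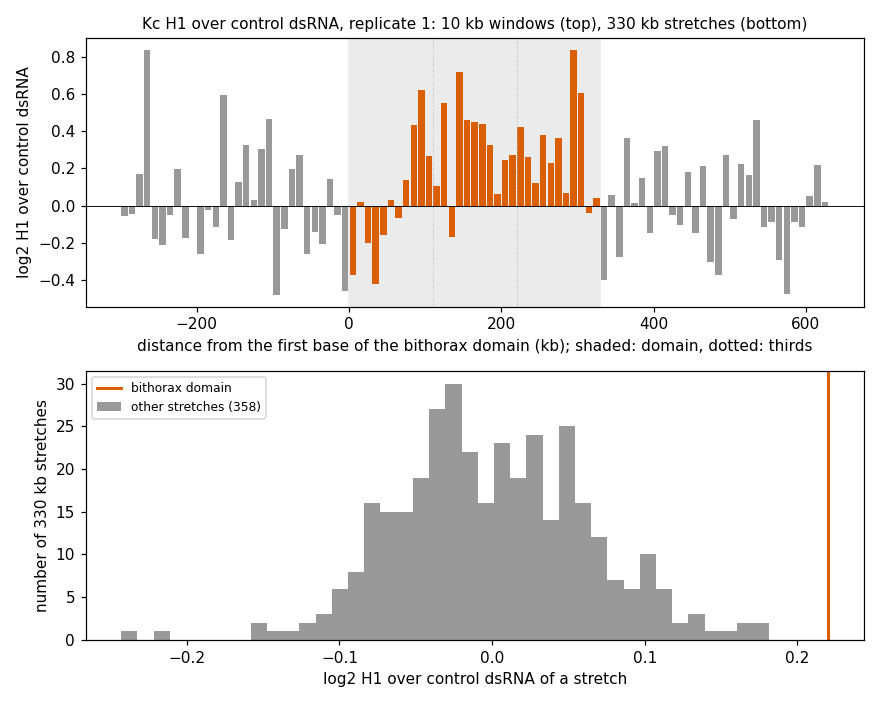
Top, log2 coverage of H1 over control dsRNA in replicate 1 of Kc cells in 10 kb windows against distance in kb from the first base of the domain, with the domain in orange and flanks in grey. Bottom, the same value over 358 other stretches of 330 kb (grey bars) and the domain (orange line, 0.22), which lies above the highest other stretch at 0.18.

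The nucleosome repeat length of the domain, the slope through maxima 2 to 4 of the nanopore length histogram, was 169 bp after H1 dsRNA and 180 bp after control dsRNA in replicate 1. The flanks had 166 and 160 bp after H1 dsRNA and 180 and 176 bp after control dsRNA, and the arms 160 and 181 bp. In simulated ladders of the same depth the SD of 1 value was 3.90 bp after H1 dsRNA and 2.42 bp after control dsRNA. Replicate 2 gave no value in either group, because a maximum lay on the limit of its search range, so the difference of -11.0 bp is 1 library against 1, with no test. It was -19.0 bp with a smoothing SD of 10 bp and -21.4 bp with maxima 1 to 4. If limits are checked for the fitted maxima alone, the 64 fragments of control replicate 2 give 136.5 bp and the difference turns to 10.75 bp (exact permutation p = 1). That rule was read strictly only after the value of 136.5 bp had been seen, and the shorter repeat after H1 dsRNA in the domain rests on replicate 1. Untreated BG3-c2 libraries had 170 and 190.5 bp in the domain, against 182.5 and 186 bp on the arms.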

How the data were processed

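The authors deposited, for each library, a table of genome intervals (chromosome, start and end in bp), 1 per aligned fragment, and in some nanopore tables a score beside each interval. Per the submitters' processing notes, Bowtie 1.1.1, bedtools and build dm3 (release 5) were used; the aligner of the nanopore reads and the filters are not given in the sources used here. The deposited score was treated as a mapping score and used only in alternatives. Tables of the titration were matched to libraries by name.

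Identical intervals were counted once. Coverage was the count per 1 kb window relative to the arm mean. MNase sensitivity used a pseudocount of 0.5 and windows with a sum of at least 20. Windows to be named were up to 3 at each end of the range of sensitivity and phasing. Groups were compared by exact permutation or sign-flip tests over libraries, and 10 kb windows by limma 3.58.1 (R 4.3.3) (eBayes with trend, p-values adjusted by Benjamini-Hochberg), on at least 20 fragments of 500 to 1000 bp or 50 ends. The phase statistic, repeat length and the length and coverage fits of limma were tested on simulated data. PCR copies are not independent molecules, so intervals cover counting error only. Members, lists and tests were chosen with earlier results of these data known.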

Additional observations from a re-analysis of the deposited data

How the results depend on the processing

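Alternatives covered, each for the results it bears on, repeated intervals, flank size and side, dense windows, length limits, read ends, window size, period, filters, pseudocount, score, the replicate block and leaving out each library. For coverage and tetranucleosomal length, domain against flanks, the mean over libraries kept its direction under all that were run. These were repeated intervals, flanks, dense windows, leaving out a library and, for length, the limits and the median. Single libraries did not all keep it. Control replicate 1 turned to 0.02 (log2) for coverage against the higher-coordinate flank. For length it turned to 1.65 bp for 600 to 800 bp and to 2 bp with the median. Leaving out single libraries gave -0.29 to -0.22 (log2) for coverage, -6.85 to -4.51 bp for length and -7.92 to -3.80 (times 1000) for phasing. Phasing was -14.1 from right ends and turned to 0.37 with an unweighted mean over windows. MNase sensitivity, -0.31 for domain minus flanks, moved to -0.12 for low over medium and to -0.091 (counting SE 0.091) on nanopore. It was -0.35 for fragments of 500 to 1000 bp, -0.37 with flanks of 100 kb and -0.35 without dense windows. The H1 repeat length difference was -21.4 bp with maxima 1 to 4, and 10.75 bp with limits checked for maxima 2 to 4 alone. The cause of these moves was not tested.

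Leaving out single libraries, ISWI minus control ranged from -6.03 to 4.88 bp for length, from 2.85 to 11.8 for phasing and from -0.10 to 0.0059 for coverage, and H1 minus control coverage from 0.10 to 0.20. The length difference turned to 2.38 bp without ISWI replicate 2 and 4.88 bp without control replicate 1, and coverage to 0.0059 and 0.0035. BG3-c2 minus Kc turned to 0.011 with flanks of 100 kb and to 0.059 without Kc control replicate 2, in a range of -0.21 to 0.059. Counts of limma calls, 0 in each fit, became 865 for length without centring (1 in the domain) and, leaving out single libraries, ranged from 0 to 7 for length, 0 to 676 for phasing and 0 to 263 for coverage. The highest counts came without ISWI replicate 1, with 0, 1 and 2 calls in the domain.

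With the replicate number as a block, the differences were as above, at -0.58 bp, 7.31, -0.05, 0.15 and -0.08 for ISWI length, phasing and coverage, H1 coverage and BG3-c2 against Kc, and limma called 0 windows. Same-numbered ISWI and control libraries deviated together with a correlation of 0.22 over 12004 windows, and labels do not say that numbers mark a shared day. No paired value of repeat length could be had because replicate 2 gave none, and the phasing fit on windows of at least 200 ends was not run because no window had as many. Shallow Kc replicates, single titration libraries and the dependence of limma calls on ISWI replicate 1 limit these results.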
